A study of Mus musculus with 160 samples.

Results

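The step from induced hematopoietic endothelial cells (iHECs) to the first induced hematopoietic progenitor cells (day-14 iHPCs) was described gene by gene in 86 single cells, 65 iHECs and 21 day-14 iHPCs, out of 160 cells in all. Cells were assigned by their labels alone. Both groups came from C57BL/6 mouse pluripotent stem cells that carry a doxycycline-inducible Runx1-p2a-Hoxa9 cassette in the Rosa26 locus, and both were cultured with doxycycline. The labels give embryonic and reprogrammed stem cells together, and the study's text names an embryonic stem cell line for the single iHECs and iHPCs. The iHECs had been sorted as CD31+CD41lowCD45-c-kit+CD201high, and the day-14 iHPCs, taken on day 3 of maturation on OP9-DL1 stroma, a feeder line that displays the Notch ligand DL1, as CD45+ cells lacking lineage markers of red cells, granulocytes, macrophages, lymphocytes and mast cells. Per the study's methods, the iHECs were sorted before the step on this feeder line, and the culture medium changed at that step. Day, medium, feeder line and sort gate therefore cannot be told apart. Ptprc (CD45), Procr (CD201), Kit, Pecam1 (CD31) and Itga2b (CD41) were fixed by the gates. The transcripts of the cassette and of the endogenous Runx1 and Hoxa9 are not separated in the values. No label ties a cell to an animal or a culture, so a group was treated as a single sample, none of the differences has a replicate check, and an SD is the spread between cells.

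Blood cells arise in the embryo from hematopoietic endothelium, endothelial cells that lose their junctions, round up and leave the vessel wall while they take on a blood program. Endothelium is held together by VE-cadherin and claudin-5 and anchored to a basement membrane through integrins and focal adhesions. Leukocytes have no such contacts and move with a cortical actin network built from their own paralogs of widely used actin regulators.

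Libraries that went against their labels came first. In 2 of the 21 day-14 libraries, 5 of 6 pluripotency markers were above 1 TPM (the transcript abundance unit of the deposited table), whereas no other of the 160 cells had more than 2. Pou5f1, the core pluripotency factor Oct4, stood at 9.93 and 9.45 in them on the log2(TPM + 1) scale used throughout. Dppa5a, a gene of pluripotent and germ cells, stood at 12.31 and 11.41, and Utf1, a chromatin factor of pluripotent cells that was looked up after the values had been seen, at 10.93 and 10.34. Nanog and Sox2 were lower, at 2.76 and 3.14 and at 3.33 and 5.29. Ptprc, the gene behind the CD45 gate, was listed at 0 in both, as were Cdh5 and Sox18. Coro1a was nevertheless at 5.43 and 4.97 and Tyrobp at 2.12 and 2.15, below the lowest of the other 19 day-14 iHPCs, 9.62 and 9.15. Among iHECs, 64 of 65 had 0 of the 6 markers and 1 had 1 marker. No library was removed, and the values below are also given without these 2 libraries wherever a count or a call changed.

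Another day-14 library had only 3103 genes above 1 TPM, against 6337 to 9333 in the other 20. It held Ptprc at 6.10 and Coro1a at 9.62 together with Dppa5a at 7.88, Tdgf1 (a growth factor co-receptor of pluripotent cells) at 8.87 and Epcam (an epithelial adhesion molecule) at 7.19. In 2 iHECs the mean of 14 leukocyte surface genes exceeded that of 19 endothelial genes, at 3.68 against 1.36 and at 3.07 against 2.30.

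Some libraries resembled each other closely. Over all genes, Pearson's r of log2(TPM + 1) was 0.977 to 0.994 in 4 pairs of iHEC libraries, whereas all other iHEC pairs lay at or below 0.835, with a median of 0.658. Among day-14 libraries 4 pairs lay at 0.959 to 0.978, next to 0.947 for the closest of the other pairs and a median of 0.900. Whether the libraries of a pair came from 1 cell was not tested, and every number of cells, share and interval counts them as separate cells. With 1 library of each pair, 61 iHECs and 17 day-14 iHPCs remained. None of the genes called over all cells changed sign between these cells, and the counts that changed are given beside the results.

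**Figure D1:**
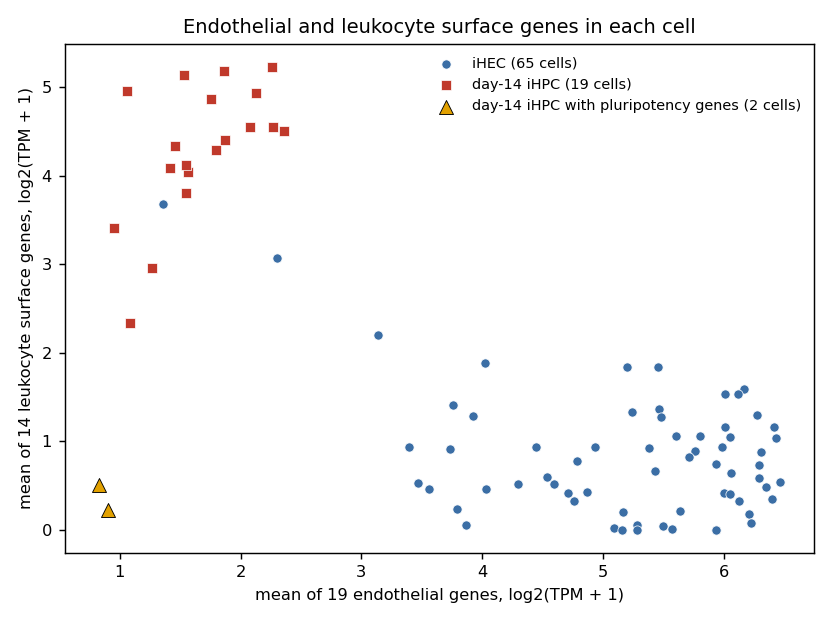
Each point is 1 cell, with its mean over 19 endothelial junction and surface genes (x axis) and over 14 leukocyte surface genes (y axis), both in log2(TPM + 1). The 19 include Pecam1 and the 14 include Ptprc, which the gates fixed. The 19 day-14 iHPCs drawn as squares lie between 2.34 and 5.23 on the y axis, the 2 day-14 libraries with pluripotency genes (triangles) lie at 0.50 and 0.23, and 2 of the 65 iHECs (circles) lie at or below the highest day-14 value of 2.36 on the x axis.

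The groups differed in how many genes were detected. The number of genes above 1 TPM had a median of 4926 in iHECs and 8200 in day-14 iHPCs, and only 12 of 65 iHECs had 6000 genes or more, against 20 of 21 day-14 iHPCs. TPM keeps no read depth, so how much of this gap is depth and how much is the cells' content cannot be told apart. A gene counted as detected in a cell above 1 TPM, and 9674 genes were detected in over 30 cells of the 160. For these, the median difference of the mean log2(TPM + 1), day 14 minus iHEC, was 0.93. With the genes split into 10 bins of mean level, it was 0.73 in the lowest bin, 1.6 in bin 6 and 0.20 in the highest. A gene was therefore called higher or lower only where its difference and the same difference minus 0.93 were both past 2 in that direction. By this rule 1171 genes (12.1%) rose and 545 (5.63%) fell. Without the 2 libraries with pluripotency genes the numbers were 1187 and 558, of which 1112 and 533 were shared. With 1 library of each near-identical pair they were 1155 and 530, of which 1109 and 514 were shared. These percentages are the background against which the counts of each gene list below are read. Such counts cover only list members detected in over 30 of the 160 cells. A gene detected in iHECs alone could pass this filter, whereas a gene detected in the 21 day-14 iHPCs alone could not.

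Apart from the libraries above, the marker genes followed the labels. Cdh5, which codes for VE-cadherin, spanned 0.00 to 8.74 in iHECs with a median of 5.96 and was listed at 0 in all 21 day-14 iHPCs (63 of 65 cells above 1 TPM, 96.9%, exact Clopper-Pearson 95% interval 89.3 to 99.6, against 0 of 21, which by a limit of 3 cells allows a share of up to 14.3%). Such intervals and limits hold for counting error alone and concern cells with a value above 1 TPM, not cells in which detection failed. Sox18, a transcription factor of vessels, was likewise detected in 63 of the 65 iHECs, with a median of 7.79, and listed at 0 at day 14. Ecscr, an endothelial surface regulator, was at 1.25, 9.98 and 11.34 (lowest, median and highest) in iHECs and at 0.00, 0.00 and 4.36 in day-14 iHPCs, so the groups overlapped in few cells.

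On the blood side, Coro1a, the coronin of leukocytes, was at 0.00, 0.00 and 8.81 in iHECs and 4.97, 10.56 and 11.64 at day 14. Its detection extended to 14 of the 65 iHECs (21.5%, interval 12.3 to 33.5) and to every day-14 library. Tyrobp, the signaling adaptor DAP12, was detected in 17 of the 65 iHECs and reached 10.61 in one of them, close to the day-14 median of 10.57. Myb, a transcription factor that definitive progenitors need, was detected in only 3 of the 65 iHECs (4.62%, interval 0.962 to 12.9) but 19 of the 21 day-14 cells (90.5%, interval 69.6 to 98.8). With 1 library of each near-identical pair, Cdh5 was detected in 59 of 61 iHECs (96.7%), Coro1a in 12 of 61 (19.7%, interval 10.6 to 31.8) and Myb in 3 of 61 and 15 of 17 day-14 iHPCs (88.2%, interval 63.6 to 98.5). Stromal markers, which would mark feeder cells, were low: Col1a1, Col3a1, Pdgfra and Lum were above 1 TPM in no cell of either group. The level summed over 8 stromal genes ran from 0.00 to 3.95 in iHECs and from 0.00 to 5.23 at day 14, where Pdgfrb was above 1 TPM in 10 of 21 cells against 0 of 65 iHECs. The part of feeder RNA in the results was not tested.

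**Figure D2:**
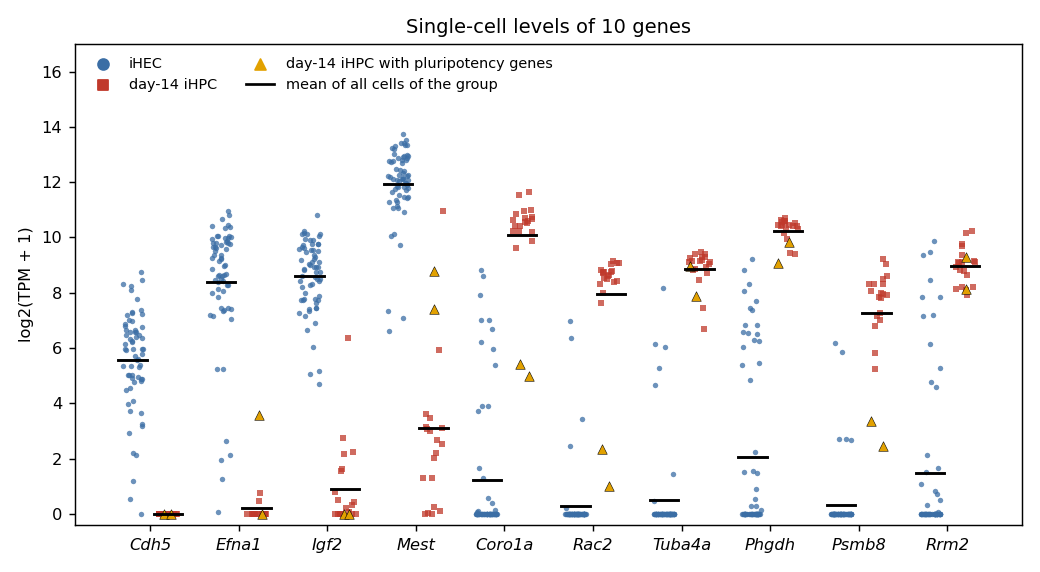
Level in each cell of 10 genes in log2(TPM + 1), with iHECs as circles, day-14 iHPCs as squares, the 2 day-14 libraries with pluripotency genes as triangles and a bar at the mean of all cells of the group. Cdh5 was listed at 0 in every day-14 library, whereas Phgdh was between 9.08 and 10.70 in all 21 and at a median of 0.00 in iHECs.

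Most genes of endothelial contacts and identity fell. Of 19 genes of endothelial junctions and surface 15 were tested, of which 13 fell and 0 rose, with a median difference of -4.36. Relative to all genes compared it was -5.28, and -3.27 over all 19 with no filter, where the median of all genes was 0. The 19 include Pecam1, which the gates fixed. Besides Ecscr, the largest falls were those of Plvap (-7.34), which forms the diaphragms of endothelial pores, Cldn5 (-7.24), the claudin of tight junctions, and Cdh5 (-5.57). Cldn5 was detected in 61 of the 65 iHECs but 2 of the 21 day-14 cells. Cd34, a surface sialomucin that endothelium and progenitors share, was above 1 TPM in every cell of both groups, with means of 9.5 ± 1.3 in iHECs and 8.8 ± 2.4 at day 14 (SD between cells).

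Of 16 endothelial transcription factors 11 passed the filter, of which 7 fell and 0 rose. Relative to all genes compared, their median difference was -4.64, and -1.82 over all 16 with no filter, where the median of all genes was 0. Before any subtraction it was -3.71 over the 11. The SoxF factors Sox18 (-7.23), Sox7 (-4.99) and Sox17 (-4.38) were each above 1 TPM in 0 of 21 day-14 iHPCs. Ets1 fell by 6.28 and Tcf15 by 4.56. The ETS factor Fli1 and the homeobox factor Hhex, which blood cells use as well, were not called, with differences of -1.30 and -0.08. Of 14 vascular receptors for growth and guidance cues, 12 fell, led by Ramp2 (-6.21), a partner of the adrenomedullin receptor, the VEGF receptor Kdr (-5.83), the lipid receptor S1pr1 (-5.80) and the angiopoietin receptor Tek (-5.09). Tek, Flt4 and Aplnr were above 1 TPM in 52, 59 and 43 of 65 iHECs and in 0 of 21 day-14 iHPCs.

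Some contact signals between vascular cells fell. Efna1, an ephrin ligand, was at 0.08, 9.01 and 10.95 in iHECs and at 0.00, 0.00 and 3.57 at day 14, where 1 of 21 cells was above 1 TPM. With a difference of -8.17 it was among the 5 largest falls of all genes. The arterial ligand Efnb2 (-2.40) and its venous receptor Ephb4 (-2.36) fell too, and the 2 other tested ephrins were not called. Of 7 tested Notch pathway genes only the feedback inhibitor Nrarp fell (-3.37). The Notch target Hes1 was at 5.3 ± 3.1 in iHECs and 6.4 ± 2.1 at day 14. Of 11 genes of BMP and TGF-beta signaling, Id3 (-3.51), Tgfbr3 (-2.79) and Bmp2 (-2.37) fell.

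Genes of caveolae and of the basement membrane fell. Among caveola genes 5 of 7 fell, led by Ptrf (-8.20), the coat protein cavin-1, whose lowest iHEC value of 5.58 lay above the highest day-14 value of 2.04. Cav1, the caveolin itself, was detected in 47 of the 65 iHECs but 0 of the 21 day-14 cells. Of 13 basement membrane and matrix genes 11 fell, with a median difference of -4.0, and the list mean of each iHEC (2.02 to 5.88) exceeded that of each day-14 iHPC (0.67 to 1.98). The collagen-binding protein Sparc was at 6.56, 10.69 and 12.14 in iHECs and 0.00, 1.97 and 6.50 at day 14. Fibronectin, Fn1, fell by 5.46 and Col18a1 by 5.06. Timp3 (-7.26), an inhibitor of matrix proteases, was listed at 0 in every day-14 iHPC, as was Gpihbp1 (-7.96), which carries lipoprotein lipase across the vessel wall.

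Adhesion genes did not fall as a block. Of 15 focal adhesion genes 4 fell, among them the kindlin Fermt2 (-4.83) and vinculin, Vcl (-2.09), 1 rose, the leukocyte parvin Parvg (5.28), and talin, Tln1, was at 2.8 ± 2.0 and 3.7 ± 1.3. Among 14 integrin subunits Itga1 (-2.66), Itga3 (-2.56), Itgb3 (-2.40) and Itgb1 (-2.22) fell, whereas Itgb2 (4.56), the shared beta subunit of leukocyte integrins, and Itgb7 (3.35) rose. Without the 2 libraries with pluripotency genes another integrin, Itgal (3.23), was called higher too. Of 15 genes of the YAP and TEAD pathway, which reads cell spreading and tension, 8 passed the filter and 5 of these fell. Its target Cyr61 led (-4.66), and Yap1 itself was at -1.92 (-2.32 and called without the 2 libraries). Relative to all genes compared, the median difference of the list was -3.17, and -0.54 over all 15 with no filter, where the median of all genes was 0. Before any subtraction it was -2.24 over the 8.

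Imprinted growth genes fell as well. Of 11 tested, 8 fell and 0 rose, with a median difference of -4.49, close to that of the junction genes. Mest, a maternally imprinted hydrolase-like gene, had the largest fall of all genes (-8.85), from 6.61, 12.12 and 13.74 in iHECs to 0.00, 2.68 and 10.96 at day 14. The fetal growth factor Igf2 was at 4.71, 8.87 and 10.81 in iHECs and 0.00, 0.21 and 6.36 at day 14. Sgce (-6.80), Peg3 (-5.09) and Plagl1 (-5.03) fell as well. Snrpn, imprinted but used in splicing by most cells, was detected in 58 of the 65 iHECs and every day-14 cell, with a difference of -0.56.

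Immediate early genes were called in both directions. Of 14 immediate early genes, which cells induce within minutes of a stimulus, 8 fell, among them Klf6 (-5.51), Jun (-5.15), Egr1 (-5.02) and Klf2 (-4.19), a factor that blood flow induces in endothelium. Nr4a1 (3.81) and Zfp36 (3.16) rose, and Fos was at 7.9 ± 3.0 and 8.0 ± 3.1. One of the 8 falls, that of Ier3 (-2.06), was -1.67 and not called without the 2 libraries.

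Few genes of glucose metabolism were called, and some sterol genes fell. Of 14 genes of glucose uptake and glycolysis, only the transporter Slc2a3 fell, from 0.91, 10.21 and 12.15 in iHECs to 0.00, 3.20 and 6.84 at day 14 (-6.73). The enzymes Gpi1 and Ldha were above 1 TPM in every cell, and Ldha was at 11.6 ± 0.7 and 11.6 ± 0.3. Without the 2 libraries Pfkl (-2.09) and the transporter Slc2a1 (-2.07) were called lower as well. Of 15 sterol genes 4 fell, Fdft1 (-2.89), Insig1 (-2.59), Sc5d (-2.47) and Hmgcs1 (-2.32), and 0 rose. Relative to all genes compared, the median difference was -1.38 for the glucose list and -1.69 for the sterol list. The mean of the glucose list was 9.1 ± 0.8 in iHECs and 8.0 ± 0.4 at day 14.

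Leukocyte actin and surface genes rose in part. Of 16 leukocyte actin regulators 8 rose and 0 fell, led by Coro1a (8.86), the F-actin binder Lsp1 (6.00), the myosin Myo1g (5.59) and Hcls1 (4.92), and Myo1g was detected in 0 of the 65 iHECs but 19 of the 21 day-14 cells. Of 12 leukocyte surface genes 9 rose, among them Cd52 (5.40), the selectin ligand Selplg (5.19), Laptm5 (5.16) and the tetraspanin Cd53 (4.53). Both the 9 and the mean of the list include Ptprc, which the gates fixed. The mean of that list was 0.00, 0.73 and 3.68 in iHECs and 0.23, 4.34 and 5.23 at day 14. Its 2 lowest day-14 values were those of the libraries with pluripotency genes, and the lowest of the other 19 was 2.34.

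Signaling parts of immune receptors rose in part. Of 15 adaptors and kinases 7 rose, among them the adaptors Tyrobp (8.27) and Fcer1g (6.68), the kinase Btk (5.73) and the phosphatase Ptpn6 (4.21). Lcp2, the adaptor SLP-76, was lower at day 14 (-2.07), and this call was lost without the 2 libraries (-1.66). Of 12 lymphoid markers, several of which the day-14 gate fixed, Lck was detected in 16 of the 65 iHECs but 14 of the 21 day-14 cells, with means of 1.39 and 2.26, and was not called. Ebf1 was detected in 6 iHECs and 0 day-14 cells, Cd79a in 0 and 2, Eomes in 0 and 1, and the other 8 in none. Of 16 blood transcription factors 8 rose, led by Sfpi1 (6.29), which codes for PU.1, Myb (5.0), Irf5 (4.37) and Cebpb (3.99), and 10 rose without the 2 libraries. Sfpi1 was already detected in 23 of the 65 iHECs (35.4%, interval 23.9 to 48.2). Gata2, a factor of hemogenic endothelium and mast cells, was at 1.9 ± 2.4 in iHECs and 0.7 ± 1.3 at day 14.

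Some myeloid effector genes rose, and the filter left others out. Of 17 granule genes only 4 passed the filter on low values, which also counts later days, and 3 of these rose, Plac8 (7.42), the serine protease Prtn3 (6.58) and the cystatin Cst7 (4.39). Of all 17, 12 were above 1 TPM in no iHEC and 8 in no day-14 iHPC. Mpo and Elane, not among the 3, were above 1 TPM in 0 of the 12 iHECs with 6000 genes or more. Of 20 day-14 iHPCs with 4000 or more, 16 and 12 were above it. S100a8 went the other way, with 3 of these 12 iHECs and 0 of the 20. The day-14 gate left out cells with granulocyte or macrophage markers. Plac8 was listed at 0 in all 65 iHECs (a share of up to 4.62% by the same limit of 3 cells) and above 1 TPM in 19 of 21 day-14 iHPCs. Of 16 genes of the NADPH oxidase and lysosome 5 rose, among them the cytosolic oxidase subunits Ncf4 (4.55) and Ncf1 (3.99), although the median of the list relative to all tested genes was -0.12. Without the 2 libraries with pluripotency genes 6 of these rose. The chemokines Ccl3 (6.19) and Ccl9 (4.43), the only ones of 12 that were tested, both rose. Of 12 cytokine receptors, Flt3 (4.38) and Il17ra (4.07) rose (4 genes without the 2 libraries), and Flt3 was detected in 0 of the 65 iHECs but 17 of the 21 day-14 cells. The interleukin receptor chains Il2rg and Csf2rb were detected in 59 and 56 iHECs and were not called.

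Pairs of paralogs, where 1 member is used widely or by endothelium and the other was taken as the blood member, had been chosen with results of these data known. The blood member was not confined to blood in every pair. Lmnb1, set beside Lmna, was above 1 TPM in 12 of 12 iHECs with 6000 genes or more. In 23 of 27 pairs the difference of the blood member exceeded that of the other, with a median gap of 4.51. The blood member rose in 13 pairs and fell in 0, and the other member fell in 9. Both members were tested in 23 pairs, of which 5 had both called, in opposite directions, and 8 had neither called. In the kindlins, which activate integrins, Fermt2 went from 5.8 ± 2.2 to 0.9 ± 1.5 and Fermt3 from 3.0 ± 3.0 to 7.4 ± 2.2. In the TIPE family Tnfaip8l1 fell (-4.0) and Tnfaip8l2 rose (5.29), and in the cortactins Cttn fell (-3.29) and Hcls1 rose (4.92). The WAVE complex subunit Nckap1 fell (-2.47), and its leukocyte paralog Nckap1l rose (3.31).

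Other pairs changed on 1 side only. The GTPase Rac2 rose by 7.67 while Rac1 was at 8.3 ± 1.2 and 8.3 ± 0.3. Rac1 exceeded Rac2 in every iHEC, and Rac2 exceeded Rac1 in 15 of 21 day-14 iHPCs. The alpha tubulin Tuba4a rose by 8.35 beside Tuba1a at 7.7 ± 2.0 and 8.7 ± 0.9. Conversely, the G protein gamma subunit Gng11 fell by 8.46 beside Gng2 at 4.6 ± 2.3 and 4.6 ± 1.0, and the plastin Pls3 fell by 4.56 beside Lcp1 (L-plastin) at 7.2 ± 2.4 and 7.2 ± 2.1. The blood members Lcp1, Arpc1b, Arhgdib and Tagln2 were above 1 TPM in 62, 65, 65 and 65 of 65 iHECs. In 4 pairs the order was opposite, Arpc1a with Arpc1b, Arhgdia with Arhgdib, Grb2 with Grap and Tagln with Tagln2.

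**Figure D3:**
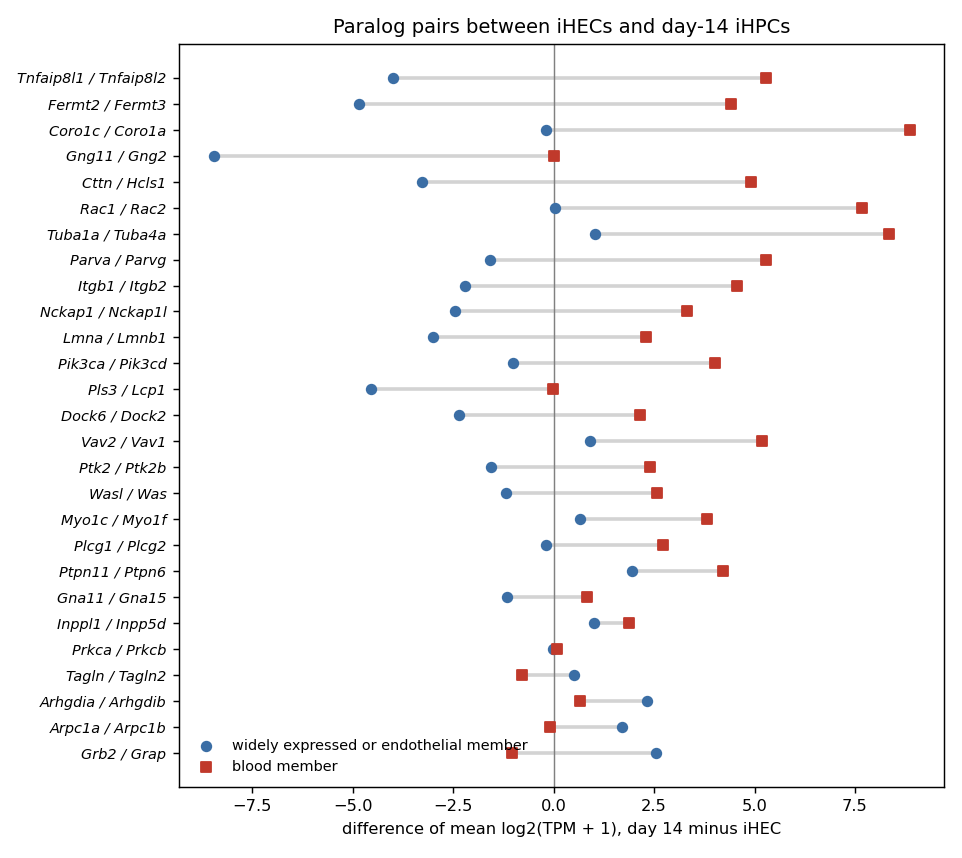
Difference of the mean log2(TPM + 1), day 14 minus iHEC, of both members of 27 paralog pairs, with the widely expressed or endothelial member as a circle and the blood member as a square. The square lies right of the circle in 23 pairs, and the gap reaches 9.29 for Tnfaip8l1 and Tnfaip8l2.

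Serine synthesis and one-carbon metabolism made up the metabolic list with the highest median difference, 5.05, and 10 of its 12 tested genes rose. Phgdh, the first enzyme of serine synthesis, was at 0.00, 0.00 and 9.22 in iHECs and 9.08, 10.42 and 10.70 at day 14, so that only the top of the iHEC range touched the day-14 cells. It was above 1 TPM in 22 of the 65 iHECs (33.8%, interval 22.6 to 46.6; 31.1% of 61 with 1 library of each near-identical pair) and in all of the 21 day-14 cells. The next enzyme, Psat1, rose by 7.52, the mitochondrial folate enzyme Mthfd2 by 6.06 and the serine hydroxymethyltransferase Shmt1 by 5.92. The list mean of 1 of 65 iHECs reached the day-14 range of 4.97 to 6.76. The 2 libraries with pluripotency genes were no exception here, and the median difference without them was 5.03.

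Neighboring pathways gave smaller counts. Of 12 genes of amino acid transport and the ATF4 response 4 rose, the transporters Slc7a5 (5.34) and Slc7a1 (3.78), Asns (3.80) and Sesn2 (3.69), while the stress genes Ddit3 and Trib3 had differences of 0.17 and 0.16. Against the 12 iHECs with 6000 genes or more, the 4 rises were 4.10, 2.28, 1.62 and 1.74 in day-14 iHPCs with 4000 or more. Of 12 targets of the antioxidant factor NRF2 6 rose, led by the quinone reductase Nqo1 (5.52), G6pdx (5.16), which opens the pentose phosphate pathway, and Srxn1 (4.58). The list mean of each of the 65 iHECs (1.37 to 5.71) lay below that of each day-14 iHPC (5.85 to 7.37), the 2 libraries with pluripotency genes included. Nqo1 was at 0.00, 0.00 and 8.58 in iHECs and 0.00, 6.77 and 9.0 at day 14. Of 10 iron and heme genes none was called in either direction, with a median difference of 1.70, which is 0.78 above the median of all tested genes.

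Genes of growth and division rose. Of 18 DNA replication genes 16 rose and 0 fell, with a median difference of 4.76. Rrm2, the regulated subunit of ribonucleotide reductase, was at 0.00, 0.00 and 9.88 in iHECs and 7.91, 9.07 and 10.25 at day 14. Of 16 mitosis genes 11 rose, led by Birc5 (7.39), Ccnb1 (6.37) and Ube2c (5.86). The replication mean of 7 of 65 iHECs and the mitosis mean of 9 reached the day-14 range, so a minority of iHECs held these genes at the level of day-14 iHPCs. The highest mitosis mean of all, 8.42, was that of an iHEC. Of 18 ribosome biogenesis factors 8 rose, led by Bop1 (5.91), Rrp9 (5.19), Dkc1 (4.05) and Rrp12 (3.95), whereas the abundant nucleolar proteins Npm1 and Ncl had differences of 1.64 and 2.14 and were not called.

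The cytoskeleton changed by isotype. Of 11 tubulins 7 rose and 0 fell, led by Tuba4a (8.35), Tubb4b (4.92) and Tubb2a (3.74). Tuba4a was detected in 6 of the 65 iHECs but 21 of the 21 day-14 cells, at 6.69 to 9.48 in the latter, the libraries with pluripotency genes included. Tubb5 was at 10.1 ± 0.8 and 10.2 ± 0.3. Among 9 genes of the lamina and intermediate filaments, Lmna (-3.01) and Vim (-2.54) fell while Krt18 (3.07) and Lmnb2 (3.03) rose. The calls of Krt18 and Lmnb2 were lost without the 2 libraries, at 2.70 and 2.88, since the median of all genes is subtracted.

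Few G protein subunits were called, whereas several RGS genes rose. Of 18 subunits of heterotrimeric G proteins, which relay serpentine receptors, only Gng11 (-8.46) and Gnaq (-2.22) fell (without the 2 libraries 3 fell and 1 rose). Gng11 was above 1 TPM in every iHEC, with a lowest value of 5.55, and in 9 of 21 day-14 iHPCs, with a highest value of 5.16. Of 8 RGS genes, which switch such G proteins off, Rgs18 (5.84), Rgs2 (3.91), Rgs14 (3.72) and Rgs10 (3.56) rose (5 genes without the 2 libraries with pluripotency genes). Among 5 tested semaphorins and plexins only Sema4d rose (3.02).

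Antigen processing genes rose and interferon-response genes were not called. Of 10 genes of MHC class I and antigen processing 5 rose, the immunoproteasome subunits Psmb8 (6.97), Psmb9 (5.62) and Psmb10 (4.93), the peptide transporter subunit Tap2 (3.22) and H2-T23 (2.93). Psmb8 was at 0.00, 0.00 and 6.16 in iHECs and 2.45, 7.93 and 9.23 at day 14. B2m, the light chain that all class I molecules share, was at 10.3 ± 0.8 and 9.7 ± 1.8. Of 10 interferon-response genes 0 rose and 0 fell, and the median list mean was 0.92 in iHECs, 1.10 at day 14 and 5.55 at day 17.

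When genes were grouped by the letters of their symbols rather than by function, 148 families had at least 8 tested genes. The families with the highest median difference were Mcm (4.15, the replicative helicase), Rgs (3.21), Snhg (2.98), Aldh (2.96), Rrp (2.67) and Haus (2.54). Snhg genes host small nucleolar RNAs, and 5 of 9 rose, with Snhg3 (4.28) and Snhg5 (4.06) highest. Among aldehyde dehydrogenases 4 of 8 rose, including Aldh18a1 (4.54), an enzyme of proline synthesis, and Aldh2 (4.43). Haus genes code for augmin, a complex that branches spindle microtubules, and Haus4 (4.84), Haus8 (4.0) and Haus5 (3.73) rose.

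The family with the lowest median was Klf (-3.34), of which 6 of 8 fell and 0 rose. Besides Klf6 and Klf2 these were Klf7 (-4.32), Klf10 (-3.63), Klf3 (-3.05) and Klf13 (-2.34), each above 1 TPM in at least 55 of 65 iHECs. Tspan followed (-0.98), and 5 of its 14 tetraspanins fell, led by Tspan6 (-6.25) and Tspan18 (-5.57), while Tspan5 rose (3.70). Among 8 annexins, which bind membranes in the presence of calcium, Anxa5 (-3.62), Anxa2 (-3.48) and Anxa6 (-2.33) fell. Anxa2 and Anxa5 were above 1 TPM in every iHEC.

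A stricter view counted genes that were above 1 TPM in at least 90% of the cells of a group and at most 10% of the other. By this rule 83 genes (0.858%) were switched on at day 14 and 15 (0.155%) were switched off. Which genes these were depended on the cells compared. Without the 2 libraries with pluripotency genes 86 were switched on, 55 of them among the 83, and with 1 library of each near-identical pair 34 were, 32 of them among the 83. Against the iHECs with 6000 genes or more 67 genes were switched on, 28 of them among the 83, and in matched cells 11 were, 7 of them shared. Genes switched off numbered 19, 14, 42 and 48 in these comparisons, with 15, 13, 15 and 8 of the 15 among them. The genes switched off were Cdh5, Cldn5, Sox18, Ets1, Kdr, Flt4, Efna1, Gpihbp1, Timp3, Ldb2, Igfbp3, Igf2r, Sgce, Serpinh1, a collagen chaperone, and Cd59a, a complement inhibitor. The genes switched on held Ptprc, which the gates fixed, and the leukocyte genes Rac2, Vav1, Btk, Selplg, Myo1g, Bin2 and Plac8. Genes without a blood name were among them too, such as Tuba4a, the immunoproteasome genes Psmb8 and Psmb9, Mcm10, the branched-chain transaminase Bcat1, the purine enzyme Atic and the nucleolar acetyltransferase Nat10.

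Single cells lay far apart on both counts. An iHEC held a median of 3 of the 83 switched-on genes, the highest held 43, and a day-14 iHPC held between 33 and 83. The iHEC with 43 had 7447 genes above 1 TPM and also held 15 of 15 switched-off genes, with Tyrobp at 10.02 beside Kdr at 5.16. The other iHEC with more leukocyte than endothelial RNA held 10 of 83 and 13 of 15, with Tyrobp at 10.41 and a replication mean of 0.85. The libraries with pluripotency genes held 66 and 60 of the 83 and 1 and 5 of the 15. Both were among the day-14 cells by which these genes were chosen, so their counts follow in part from the rule. No iHEC and no day-14 iHPC overlapped in the number of switched-off genes, 11 to 15 against 0 to 5. Cells were chosen for none of these counts, but the genes were, so the separation follows from the rule.

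**Figure D4:**
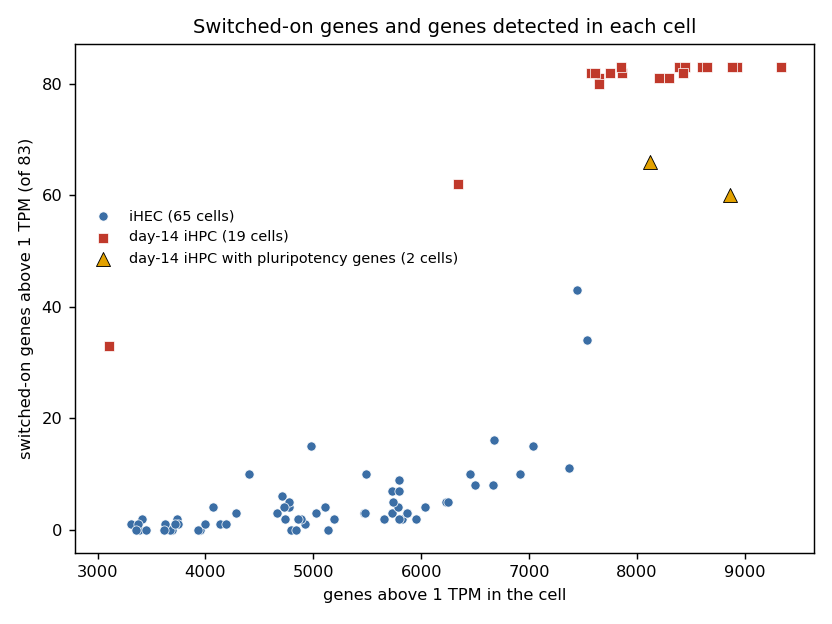
Each point is 1 cell, with the number of genes above 1 TPM (x axis) and the number of the 83 switched-on genes above 1 TPM (y axis), for iHECs (circles), day-14 iHPCs (squares) and the 2 day-14 libraries with pluripotency genes (triangles). The day-14 library with 3103 genes held 33 of the 83, more than all iHECs but the 2 that held 43 and 34.

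The gap in genes detected was allowed for in separate ways. Against the 12 iHECs with 6000 genes or more, 20 day-14 iHPCs with 4000 or more gave a median difference of 0.29, 1013 genes that rose and 842 that fell, and 775 and 489 of the calls over all cells remained. These 12 include both libraries of 2 near-identical pairs, and with 1 of each pair the 10 iHECs left gave 925 and 841 calls against 16 day-14 iHPCs. A linear fit with the number of genes detected gave a median of -0.19 with 756 and 1203 calls. The balance between rises and falls therefore depended on this step, while the direction of the lists depended less on it. Relative to the median of all tested genes, all 37 lists with 3 or more tested genes kept their direction among the cells with most genes, and 34 kept it in the linear fit. The 3 that did not were the lamina genes (1.37 against -0.06), the interferon genes (-0.85 against 0.11) and the semaphorins and plexins (-0.52 against 0.33).

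Some lists shrank and others grew. The relative median of sterol synthesis was -1.69 over all cells, -2.12 among the cells with most genes and -2.73 in the linear fit. That of BMP and TGF-beta signaling was -0.95, -1.38 and -2.24. The relative median of the serine and one-carbon list was 4.12 over all cells, 3.27 among the cells with most genes and 3.30 in the linear fit. That of mitosis was 3.19, 2.75 and 1.69, and that of the tubulins 2.22, 2.04 and 1.51. The falls of the endothelial junction list (-5.28, -4.37 and -4.91) and of the imprinted list (-5.41, -5.04 and -4.46) and the rise of leukocyte surface genes (3.20, 3.15 and 3.0) were closer together. For single genes, the difference of Phgdh was 8.20 over all cells and 5.48 among the cells with most genes, where 9 of 12 iHECs were above 1 TPM, and that of Fermt3 went from 4.41 to 1.87. The difference of Glipr1 was 8.06 and 8.01, with 0 of 12 iHECs above 1 TPM.

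**Figure D5:**
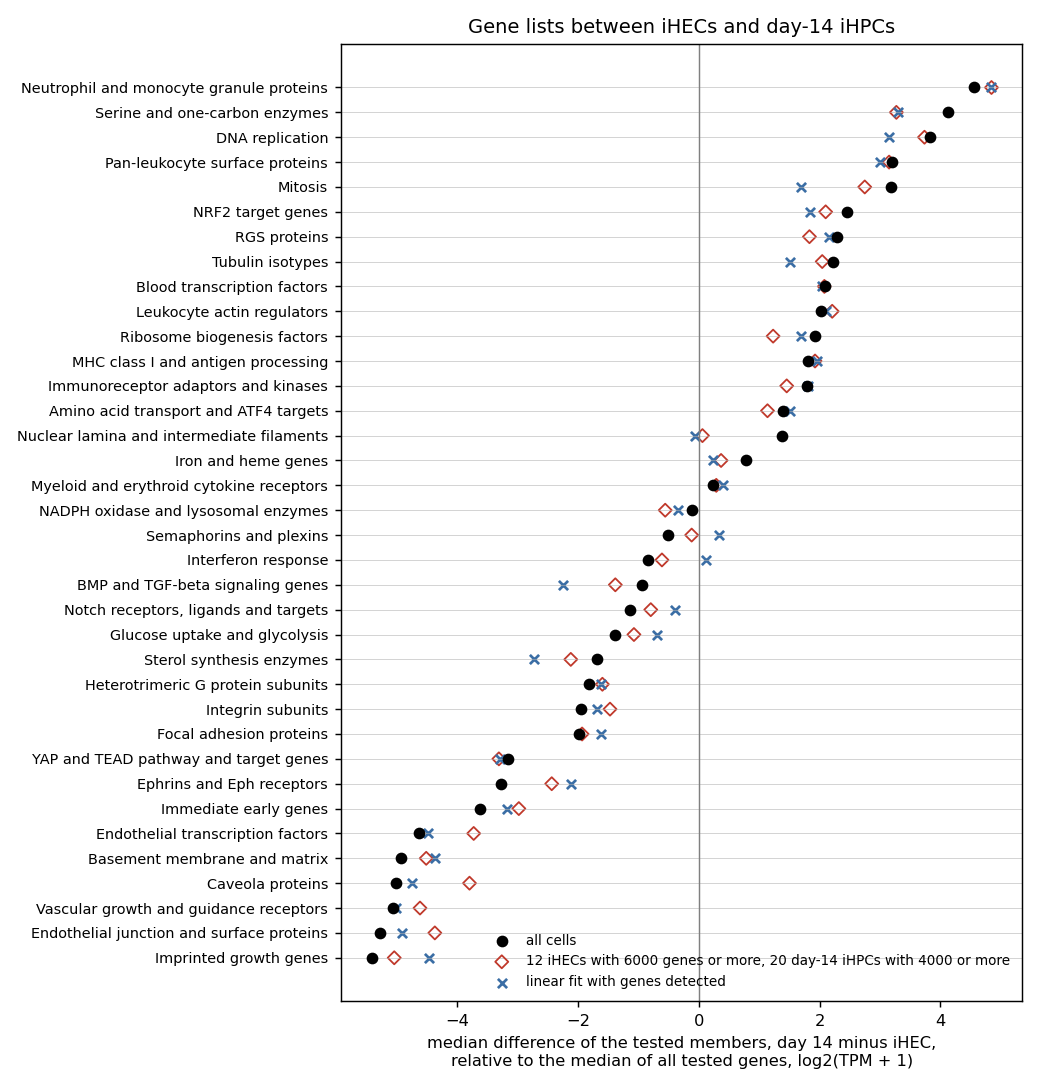
Median difference of each gene list, day 14 minus iHEC, relative to the median of all tested genes, in log2(TPM + 1), over all cells (filled circles), among the cells with most genes (diamonds) and from a linear fit with genes detected (crosses). The 3 symbols lie on the same side of 0 in 33 of the 36 lists drawn, and the imprinted genes lie at -5.41 over all cells. The granule list, at 4.56, rests on the 4 of its 17 genes that passed the filter. It is at 0.17 with no filter, where the median of all genes is 0.

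Within the 65 iHECs, the list means followed the number of genes detected to different degrees. Pearson's r across cells was 0.74 for NRF2 targets and 0.70 for serine and one-carbon enzymes, 0.51 for leukocyte surface genes and 0.17 for endothelial junction genes. The cells share TPM scaling and differ in library complexity, so these are descriptions only. The serine and one-carbon mean also followed the replication mean (r = 0.68), and the endothelial and leukocyte surface means went in opposite directions (r = -0.42).

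Later days set the day-14 levels in order. The mean of Coro1a was 10.08 at day 14, 10.73 at day 17 and 10.58 at day 21, and that of Cdh5 was 0.00 on all of these days. Mest, by contrast, was at 3.09 at day 14, 5.61 at day 17 and 0.42 at day 21, and Nqo1 at 6.42, 2.13 and 5.36. Median list means of NRF2 targets were 6.6, 5.14 and 4.95, of MHC class I genes 5.15, 7.14 and 6.67, and of chemokines 1.57, 0.67 and 0.00. The sort gate also differed at day 21, when c-kit and CD127 were required, and each day is 1 sample, so these orders have no replicate check. The day-17 values include a library with a leukocyte surface mean of 0.70, where the next lowest was 3.96. It held 7 of the 15 switched-off genes. Near-identical pairs were looked for among iHECs and day-14 iHPCs only.

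Promoter sequence was compared between the genes that rose and those that fell, in RefSeq windows of GRCm38.p6 from 250 bases before to 50 after each start. Windows were at hand for 953 genes that rose, 403 that fell and 7778 that were tested. The ETS motif CCGGAAGT, on either strand, was in 11.8% of the windows of genes that rose, 2.73% of those that fell, 9.90% of all tested genes and 4.0% of all 27025 promoters. The share was therefore low among the falls and, among the rises, near that of all tested genes. The AP-1 motif TGANTCA showed the reverse order, 4.20%, 7.44%, 4.50% and 7.93%. Shares of the PU.1-type motif GAGGAAGT (3.99%, 2.73%, 3.33% and 3.28%), the RUNX motif TGTGGT (12.6%, 10.2%, 12.2% and 16.9%), the GATA motif AGATAA (6.19%, 6.45%, 6.22% and 11.4%) and the SOX motif ACAATGG (1.47%, 1.99%, 1.75% and 3.71%) lay closer together. GAGGAAGT and CCGGAAGT share the core GGAAGT. A match is a string of letters in this window and was not tied to binding.

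The 3 genes with the largest rise that hold CCGGAAGT upstream of the start, and the 3 with the largest fall that hold TGANTCA there, are shown as 30-base windows read 5′ to 3′ along the gene, with the motif or its reverse complement in capitals. They were Slc35c2 (chr2:165287850-165287879, minus strand), Wdr46 (chr17:33940650-33940679, plus strand), Aurka (chr2:172370684-172370713, minus strand), Upp1 (chr11:9117952-9117981, plus strand), F2r (chr13:95618652-95618681, minus strand) and Ctla2a (chr13:60936736-60936765, minus strand).
Slc35c2: ccaccccaccgACTTCCGGcggaagtctcg
Wdr46: tgaagggggggACTTCCGGaagttttccta
Aurka: gttggtgcaccACTTCCGGgctccgacagc
Upp1: gactgaatgaaTGAGTCAtttcccctactg
F2r: ccccgaggggcTGAGTCActcccaggcttg
Ctla2a: tccttgctgtaTGACTCAgcctgttccttg
In the Wdr46 window a second match, in the other orientation, overlaps the capitals and ends in the lowercase bases after them. Slc35c2, a transporter-like protein of the secretory pathway, went from 0.72 to 7.09, the nucleolar protein Wdr46 from 1.27 to 6.78, and the mitotic kinase Aurka from 1.61 to 7.05. The uridine phosphorylase Upp1 went from 7.57 to 1.03, the thrombin receptor F2r from 8.61 to 2.17, and the protease inhibitor Ctla2a from 9.12 to 2.83.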

How the data were processed

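Per the labels and the methods, cDNA of each sorted cell was amplified with the Discover-sc WTA Kit V2 after a qPCR check of B2m and Gapdh. Per the submitters' processing notes the authors used mm10, HISAT2 2.1.0, SAMtools 0.1.19 and StringTie 1.3.4. The deposited values are TPM for 23420 genes in 160 cells, scaled within a cell, and 0 columns went unused. TPM keeps no depth, so no count model applied.

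Means of log2(TPM + 1) over cells were compared, a scale that understates changes of low genes. Each group was 1 sample, so no test was run, and no doublet caller was used. The rule for naming took the 15 largest and 15 smallest differences, up to 4 called members of each of 38 lists, called members of 27 paralog pairs and the markers. Other list members, pair partners, family members, lymphoid genes, Utf1, Tdgf1, Epcam and the genes of the promoter windows were named after their values had been seen. Members and lists were chosen with earlier results of these data known. Some genes and 1 list are not reported here. The calling rule was tried on simulated data, in which each gene's values were shuffled over the cells of both groups. Of 50 genes raised by 3 log2 units 47 were called higher, and of 50 lowered by 3, 41 were called lower. Of 9474 unchanged genes 30 were called. The changed genes were drawn from those with higher medians. Shuffling removed the gap in genes detected, so this trial cannot tell how the rule fares with that gap. Libraries of a group whose values correlated above 0.95 were called near-identical, and this alternative was chosen after seeing the data. Alternatives were other pseudocounts, filters, thresholds and centerings, a mean of TPM, cells matched on genes detected, a linear fit and cells left out. Python 3.11.15, numpy 2.4.6, pandas 2.3.3, scipy 1.17.1 and matplotlib 3.10.9 were used. Promoters are from RefSeq of GRCm38.p6, the assembly that mm10 names.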

Additional observations from a re-analysis of the deposited data

How the results depend on the processing

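No paired analysis was possible because the labels number cells, not cultures, and each group is 1 sample, which also leaves no replicate to leave out. Against 1171 genes higher and 545 lower, a pseudocount of 0.1 gave 2042 higher, a pseudocount of 10 gave 343 higher and 270 lower, no filter on genes gave 2524 higher, and the log2 of the mean TPM gave 677 higher and 1016 lower. Allowing for genes detected turned the balance: a linear fit gave 756 higher and 1203 lower, 5 pairs of matched cells gave 989 higher and 1315 lower, and the 12 iHECs with 6000 genes or more, an alternative chosen after seeing the data, gave 1013 higher and 842 lower (925 and 841 with 1 library of each near-identical pair). Of the genes called over all cells, 81 changed sign between matched cells and 13 in the linear fit. The other alternatives gave 927 to 1203 higher genes. Genes switched on numbered 83, 39 at a threshold of 10 TPM, 11 in matched cells, 34 with 1 library of each near-identical pair and 36 when those were also limited to 6000 genes or more, and genes switched off 15, 48 in matched cells and 42 against iHECs with 6000 genes or more (40 with 1 library of each pair). Relative list medians kept their direction in at least 33 of 37 lists under each alternative, and that of the ephrins became 0.0107 with no filter on genes. With no filter those of the vascular receptor, caveola, basement membrane and imprinted lists were -4.01, -2.95, -2.64 and -3.63. Over the tested genes they were -5.06, -5.02, -4.93 and -5.41. That of the leukocyte surface list was 3.70 with no filter and 3.20 over the tested genes. None of the 146 genes called and named by rule changed sign. The difference in the share of cells with Fdft1 and Hmgcs1, day 14 minus iHEC, became -14.4 and -0.44 percentage points at 10 TPM. The cause of these changes was not tested. TPM without depth limits what can be said of genes listed at 0.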
